A study of Arabidopsis thaliana with 7 samples.

Results

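The 5 TOPLESS genes of Arabidopsis thaliana were followed through 7 deposited lists of ChIP-seq peaks of the E2F transcription factors and their partner RBR. They are TPL (TOPLESS, AT1G15750) and the TOPLESS-RELATED genes TPR1 (AT1G80490), TPR2 (AT3G16830), TPR3 (AT5G27030) and TPR4 (AT3G15880, WSIP2 in the RefSeq annotation), that is 5 of 27444 nuclear protein-coding genes. The family was chosen by measured values of these same lists, since the fold enrichment of TPR3 is among the highest for E2FA and RBR. Its height there is therefore given as a description and was not tested. Chromatin came from whole seedlings of the Col0 accession in which RBR or one of the factors E2FA, E2FB and E2FC carried GFP (a fluorescent protein that serves as the tag for the antibody), each from its own promoter (pE2FA-E2FA-GFP and so on), without treatment. The labels give an age of 12 days and the methods 14 days. There were 2 libraries each of E2FA, E2FB and RBR, called replicate 1 and replicate 2, and a single library of E2FC, which is a replicate 1. Every cell type of the seedling contributed to a library, and no library from input chromatin or from plants without a GFP fusion was analysed here. The 4 replicate 1 lists hold broad peaks with values averaged over each peak, and the 3 replicate 2 lists hold narrow peaks with a summit, so replicate, peak format and batch cannot be told apart.

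TOPLESS proteins are transcriptional co-repressors of the Groucho type. They do not bind DNA themselves but are recruited by proteins that carry an EAR motif, among them the Aux/IAA repressors of auxin signalling, the NINJA adaptor with its JAZ partners in jasmonate signalling and the stem cell regulator WUS, and they bring histone deacetylases such as HDA19 to the bound genes. TPL was first known from a mutation that turns the embryonic shoot pole into a root, and TPR1 acts with the immune receptor SNC1. E2FA and E2FB are best known as activators of cell cycle genes, E2FC as a repressor, and RBR, the plant relative of the retinoblastoma protein, binds all of them.

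For each gene, every peak with a base within 1000 bp of the annotated transcriptional start site (TSS) was taken, and positions are counted from the TSS along the direction of transcription, with negative values upstream. The peak of highest fold enrichment (reads in the peak relative to the background around it) stands for the gene. Since fold enrichment is comparable only inside a list, each peak was also given the percentile it reached, the share of the peaks in its own list with a lower fold enrichment. The lists held between 24883 and 28742 nuclear peaks, with a median fold enrichment of 1.62 to 1.81 for replicate 1 and of 2.65 to 3.06 for replicate 2, and a peak near a TSS was common in each of them.

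At TPL, TPR2 and TPR3 the replicate 2 summits of E2FA, E2FB and RBR fell within 1 printed stretch of 201 bp. Summits this close were common, since the median spread was 95 bp over all genes with a summit of these 3 proteins. The sequences under the summits are shown first, because they contain words that recur between members. Each is printed 5′ to 3′ in the direction of transcription, ends upstream of the TSS, and comes from the RefSeq copy of TAIR10.1. At TPR3 the stretch from -232 to -32 (chr5:9515597-9515797, minus strand) holds the E2FA, E2FB and RBR summits. Its capitals mark a word shared with TPR1 and, farther on, a word shared with TPR2. The TPR2 stretch from -558 to -358 (chr3:5730961-5731161, plus strand) also holds all 3 summits, and its capitals mark a word shared with TPR1, read on the other strand there, and the word shared with TPR3.
TPR3: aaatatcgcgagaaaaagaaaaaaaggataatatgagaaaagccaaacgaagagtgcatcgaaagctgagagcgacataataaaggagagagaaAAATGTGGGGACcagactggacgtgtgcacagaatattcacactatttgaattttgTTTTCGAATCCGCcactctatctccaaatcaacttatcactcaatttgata
TPR2: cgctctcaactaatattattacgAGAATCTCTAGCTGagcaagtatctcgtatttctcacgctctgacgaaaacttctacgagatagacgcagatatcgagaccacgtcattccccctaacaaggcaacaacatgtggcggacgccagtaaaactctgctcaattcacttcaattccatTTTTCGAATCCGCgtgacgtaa

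TPL and TPR1, the closest pair in their upstream sequence, are shown over the same distances. The distal stretches run from -500 to -300 (chr1:5421333-5421533 and chr1:30267425-30267625, both minus strand), with the 3 TPL summits in the first and the RBR summit of TPR1 in the second. Capitals mark the G-box, a hexamer read by bHLH and bZIP factors, the longest word the 2 stretches share and, in TPR1 only, the word shared with TPR3. The proximal stretches run from -221 to -101 (chr1:5421134-5421254 and chr1:30267226-30267346, both minus strand), where TPR1 has its E2FA and E2FB summits and TPL has none. Capitals mark the word that both genes share, which in TPR1 directly follows the word shared with TPR2.
TPL distal: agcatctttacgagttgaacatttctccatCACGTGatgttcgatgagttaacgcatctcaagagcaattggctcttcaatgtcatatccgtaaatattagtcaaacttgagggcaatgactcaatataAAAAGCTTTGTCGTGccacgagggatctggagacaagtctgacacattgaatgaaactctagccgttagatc
TPR1 distal: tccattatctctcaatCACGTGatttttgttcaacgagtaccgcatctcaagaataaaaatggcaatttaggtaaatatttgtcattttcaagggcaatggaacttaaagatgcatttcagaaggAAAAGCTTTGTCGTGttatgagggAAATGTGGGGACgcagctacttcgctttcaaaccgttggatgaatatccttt
TPL proximal: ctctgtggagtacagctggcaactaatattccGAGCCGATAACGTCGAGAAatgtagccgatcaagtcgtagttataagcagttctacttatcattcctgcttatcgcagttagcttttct
TPR1 proximal: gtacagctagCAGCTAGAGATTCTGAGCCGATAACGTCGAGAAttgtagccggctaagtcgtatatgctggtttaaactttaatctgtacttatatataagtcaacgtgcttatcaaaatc

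At TPR4 the E2FA summit was next to the TSS and the other 2 summits were in transcribed sequence, so that only the 147 bp before the TSS are shown (chr3:5372294-5372440, minus strand). No capitals were set there, since apart from a run of A and G letters none of the words or motifs below lies in it.
TPR4: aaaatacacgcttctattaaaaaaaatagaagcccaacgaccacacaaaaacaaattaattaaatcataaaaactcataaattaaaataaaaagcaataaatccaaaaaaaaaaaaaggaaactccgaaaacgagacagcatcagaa

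All 5 members carried a peak in every library, and 39 peaks lay in the window around their start sites. Such a peak was frequent among all protein-coding genes too. Replicate 1 had such a peak of E2FA at 75.7% of them, of E2FB at 71.9%, of E2FC at 57% and of RBR at 74.8%. Replicate 2 had a peak of E2FA at 67.1%, of E2FB at 73.2% and of RBR at 77.4%. A peak in all 7 libraries was found at 40.8% of genes. With whole seedlings, binding in more cells and stronger binding per cell cannot be told apart. The presence of a peak sets the family apart only slightly, and the members differed in how high their peaks stood. The TSS itself lay inside the peak of all 5 members in each list except that of E2FC, where it did so in 4.

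**Figure D1:**
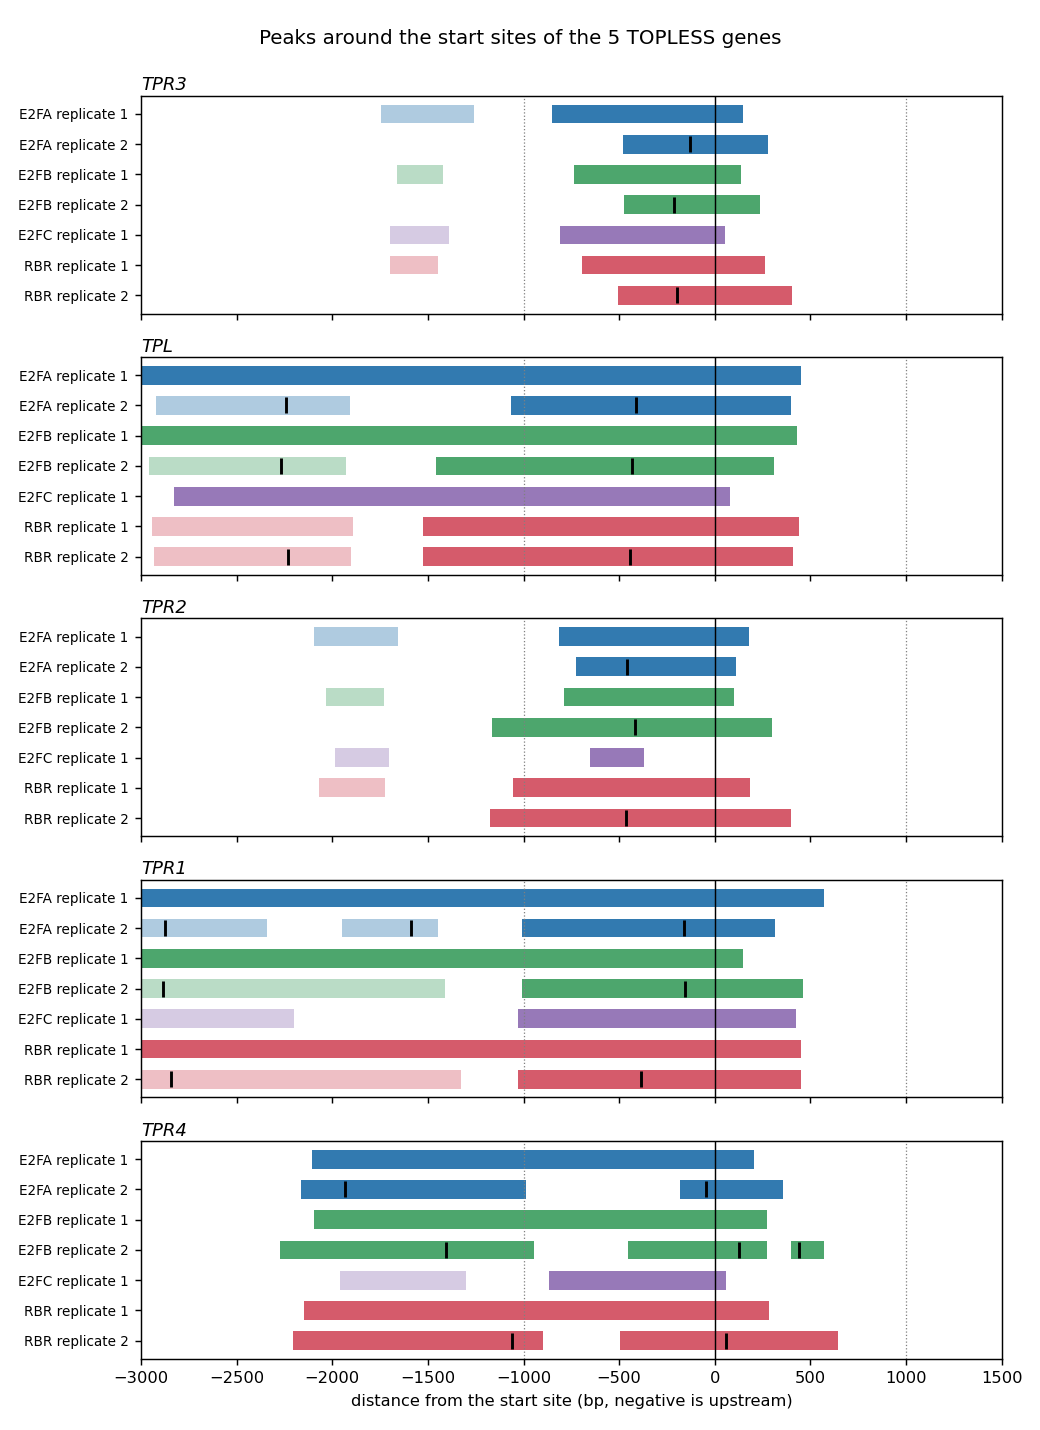
Peaks of the 7 libraries at each TOPLESS gene, by distance from the TSS in bp (bars, cut at the edges of the plot), with replicate 2 summits as black ticks and the limits of the 1000 bp window dotted. Full colour marks peaks that reach into the window and pale colour those that do not, and the peak over the TSS of TPR3 is between 715 and 1000 bp wide in all 7 libraries while the replicate 1 peaks of E2FA and E2FB at TPL and TPR1 exceed 3 kb.

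TPR3, on the minus strand of chromosome 5 from 9508718 to 9515565, had the highest values of the family in replicate 1 and the highest median percentile over the 7 libraries, 99.2. In replicate 1 its fold enrichment was 4.11 with E2FA, 2.67 with E2FB, 2.35 with E2FC and 3.03 with RBR. These were the peaks of rank 3 of 27771, rank 223 of 26356, rank 986 of 24883 and rank 7 of 27090. In replicate 2 the values were 6.35 (E2FA), 6.31 (E2FB) and 7.84 (RBR), at ranks 957, 1245 and 162. The percentile was thus between 95.3 and 99.99 over the 7 libraries, with a mean of 98.0 ± 2.07 (SD, n = 7 libraries of 4 proteins). The family was chosen by the values of E2FA and RBR. Those of E2FB and E2FC, which the choice did not name, had TPR3 as the highest member in replicate 1 too. For E2FB in replicate 2, TPL was above TPR3. The paper reports that all these proteins bind in very similar patterns across the genome, so these lists are no independent check of the choice. In replicate 1 the E2FA peak of TPR3 covered -853 to 146 and the E2FB peak -734 to 139. The E2FC peak covered -808 to 56 and the RBR peak -693 to 263. The TPR3 region also carries a long noncoding RNA gene, AT5G04345, on the opposite strand from -201 to 153. ChIP peaks have no strand, so its share in the peak and that of TPR3 cannot be told apart.

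TPL, on the minus strand of chromosome 1 from 5414817 to 5421033, followed. Its percentile was 93.1 and 96.7 for E2FA (replicate 1 and replicate 2), 89.5 and 96.4 for E2FB, 98.2 and 99.1 for RBR, and 55.2 for E2FC. The fold enrichment behind these was 2.57 and 6.70 for E2FA, 2.03 and 6.90 for E2FB, 2.53 and 7.40 for RBR, and 1.67 for E2FC. TPL was the highest member in the replicate 2 lists of E2FA and E2FB, at ranks 841 and 958, ahead of TPR3. Here too a long noncoding RNA gene, AT1G05197, lies upstream on the other strand, from -398 to -155.

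TPR2, on the plus strand of chromosome 3 from 5731519 to 5737854, was the member whose E2FC value stood farthest from the rest. For RBR it was at rank 481 in replicate 1 and rank 150 in replicate 2, where its fold enrichment of 7.95 was the highest of the 5 members. For E2FA it was at the percentiles 92.6 and 92.9, and for E2FB at 92.5 and 94.6. For E2FC it was at 29.2, with a fold enrichment of 1.53 in a peak of 286 bp from -655 to -370 that does not reach the TSS. This short peak covers the positions of all 3 replicate 2 summits at TPR2. The noncoding RNA gene AT3G03375 runs on the opposite strand from -451 to -251.

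TPR1, on the minus strand of chromosome 1 from 30260818 to 30267125, stood lower than these 3 genes for E2FA and E2FB. Its percentile was 75.4 and 89.0 for E2FA, 79.5 and 79.9 for E2FB, 91.1 and 96.3 for RBR, and 32.0 for E2FC. Its fold enrichment was 2.12 and 4.45 for E2FA, 1.87 and 4.31 for E2FB, 2.24 and 6.16 for RBR, and 1.55 for E2FC. In replicate 1 its peaks of E2FA, E2FB and RBR were 3807, 3699 and 3992 bp wide and ran past, or to within 100 bp of, the TSS of the neighbouring gene AT1G80500, at -3320 on the opposite strand. Their mean values cover the start regions of both genes.

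TPR4, on the minus strand of chromosome 3 from 5364081 to 5372293, had the lowest percentile in 5 of the 7 lists. For E2FA it was at 83.4 in replicate 1 and 55.5 in replicate 2, the widest gap between replicates in the family. For E2FB it was at 61.8 and 61.0, for RBR at 69.6 and 84.7, and for E2FC at 71.6. Its fold enrichment was 2.27 and 2.80 for E2FA, 1.70 and 3.43 for E2FB, 1.902 and 4.74 for RBR, and 1.81 for E2FC. The replicate 1 peaks of E2FA, E2FB and RBR at TPR4 were between 2312 and 2431 bp wide and ran past the start of AT3G15890, at -1955 on the opposite strand, while replicate 2 had separate peaks at the 2 places. The values for E2FA in replicate 2 and for E2FB in both replicates lay near the middle of all genes with a peak, whose median percentile was 62.8 in the first list, and 61.5 and 65.0 in the replicates of E2FB.

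**Figure D2:**
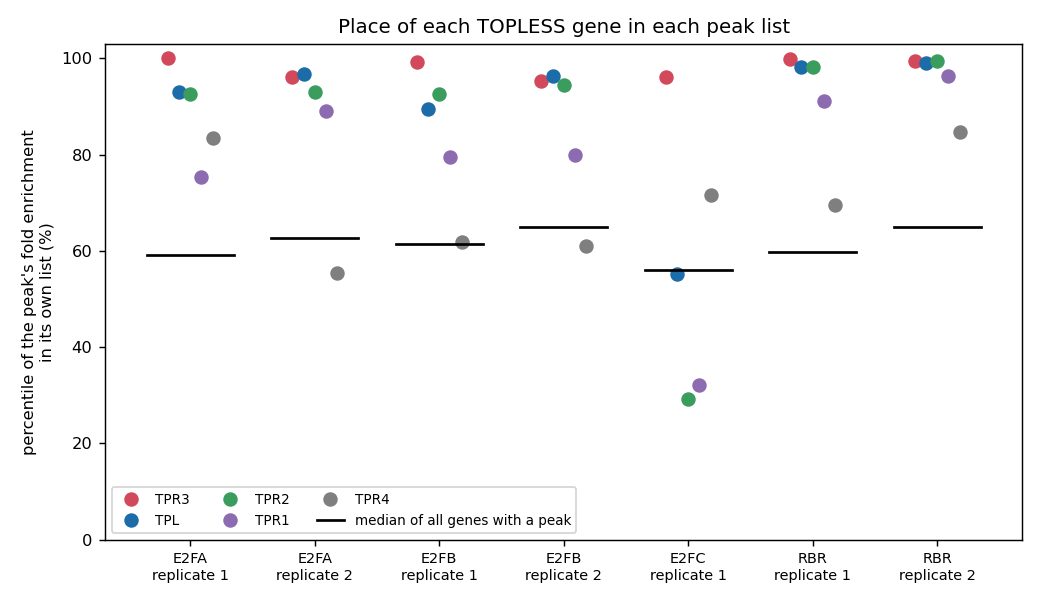
Percentile of the peak that stands for each TOPLESS gene in each of the 7 lists (points, 1 library each, no error bars), with the median of all protein-coding genes with a peak as a black line. TPR3 lies at 95.3 or above throughout, while TPL, TPR1 and TPR2 drop to between 29.2 and 55.2 in the E2FC list.

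The order of the members was not the same in all lists. TPR3 was first in all 4 replicate 1 lists, TPL in the replicate 2 lists of E2FA and E2FB, and TPR2 in that of RBR. For RBR, TPR3, TPL and TPR2 reached 99.4, 99.1 and 99.5 in replicate 2, so that their order there rests on differences as small as those between replicates of 1 gene. TPR1 followed for RBR, with a mean of 93.7 ± 3.67, and the means were 99.7 ± 0.400 for TPR3, 98.6 ± 0.614 for TPL and 98.8 ± 0.874 for TPR2 (SD, n = 2 each, of different peak formats). TPR4, at 77.2 ± 10.7 (SD, n = 2), was below TPR1 in both replicates for RBR. For E2FA, TPR1 at 82.2 ± 9.67 and TPR4 at 69.4 ± 19.7 (SD, n = 2 each) changed places between replicates and did not differ beyond their spread. For E2FB, TPR2 at 93.5 ± 1.46 and TPL at 92.9 ± 4.90 (SD, n = 2 each) also changed places.

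The median percentile of the 5 members is set here beside that of all protein-coding genes with a peak. It was 92.6 against 59.1 for E2FA in replicate 1, and 92.9 against 62.8 in replicate 2. For E2FB it was 89.5 against 61.5, and 94.6 against 65.0. For RBR it was 98.2 against 59.7, and 99.1 against 65.0, the highest of the 4 proteins in replicate 1 and of the 3 proteins in replicate 2. For E2FC it was 55.2 against 56.1. These medians rest in part on the values by which TPR3 was chosen and describe the family without a test.

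Thresholds were then set at a q-value under 0.01 and a fold enrichment over 3. The number of members that passed followed the scale of each list. In replicate 1, TPR3 alone passed for E2FA and for RBR, where 1.73% and 0.0182% of all protein-coding genes did, the contrasts by which it was chosen. No member passed for E2FB, where 0.288% of genes did, or for E2FC, where 0.266% did. In replicate 2, 4 of 5 members passed for E2FA, all but TPR4, where 32.8% of genes did. All 5 passed for E2FB, where 49.2% of genes did, and for RBR, where 52.6% did. Passing in replicate 2 was thus common among all genes and says little about the family by itself.

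**Figure D3:**
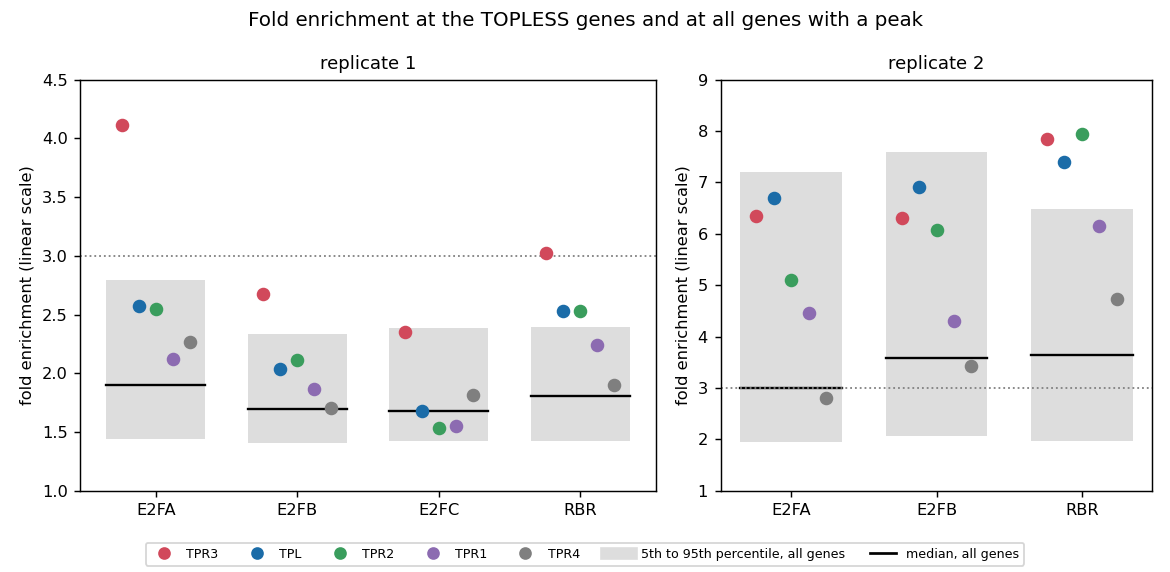
Fold enrichment of the TOPLESS genes (points, 1 library each, linear axes that differ between the replicates) on the range of all protein-coding genes with a peak (grey bars, 5th to 95th percentile, black line, median), with the threshold of 3 dotted. TPR3 stands above the grey bar for E2FA, E2FB and RBR in replicate 1, at 4.11, 2.67 and 3.03, and TPR3, TPL and TPR2 all stand above it for RBR in both replicates, between 7.40 and 7.95 in replicate 2.

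E2FC separated the members from each other. In replicate 1, 13387 genes had peaks of all 4 proteins. Over these, the E2FC percentile minus the median percentile of E2FA, E2FB and RBR had a median of -9.95. The difference was -63.4 percentile points at TPR2, and 4.67% of genes lay lower still. At TPR1 it was -47.5, with 12.7% of genes lower, and at TPL -37.9, with 19.9% lower. At TPR3 it was -3.94 and at TPR4 1.96, with 57.5% and 67.3% of genes lower. TPR3 and TPR4 thus kept in the E2FC list about the place they had for the other proteins, and the remaining 3 members did not. The peaks behind these values did not always cover the same stretch. At TPR1 the E2FC peak was 1455 bp wide, while those of E2FA, E2FB and RBR were between 3699 and 3992 bp and extended toward AT1G80500. At TPR4 it was 925 bp wide, against 2312 to 2431 bp for the others, which ran past the start of AT3G15890. The low E2FC place of TPR2 and TPR1 holds for the peak inside the window of 1000 bp. Farther upstream E2FC had a higher peak at both, at the percentile 64.5 from -1988 to -1701 at TPR2 and 54.3 from -3055 to -2200 at TPR1. E2FC had 1 library, so none of these differences has a replicate.

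RBR stood higher than the E2Fs at 3 members. At TPL, TPR1 and TPR2 the RBR percentile was above those of both E2FA and E2FB in both replicates, which was the case at 27.9% of the 15024 genes with a peak in these 6 libraries. In replicate 1 the TPL peaks did not cover the same stretch, with RBR from -1527 to 443, E2FA from -3214 to 451 and E2FB from -3056 to 431. At TPR1 the gap was widest, with 91.1 for RBR against 75.4 for E2FA and 79.5 for E2FB in replicate 1, and 96.3 against 89.0 and 79.9 in replicate 2. At TPR3 the RBR percentile was above the others in replicate 2 only, and at TPR4 likewise.

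The replicate 2 summits placed E2FA, E2FB and RBR within each promoter. At TPL they were at -412, -431 and -441, within 29 bp of each other, and at 87.4% of the 17712 genes with a summit of all 3 proteins the spread was wider. At TPR2 they were at -458, -417 and -462, within 45 bp, and 78.0% of genes had a wider spread. At TPR3 they were at -132, -213 and -198, within 81 bp, near the median spread of 95 bp over all genes. At TPR1 the E2FA and E2FB summits were 4 bp apart, at -161 and -157, while the RBR summit was at -387, 226 bp from that of E2FA. At TPR4 they were at -47, 125 and 61, the last 2 in an untranslated exon of the gene, and spread over 172 bp. Midpoints of the same peaks gave another picture, with a spread of 241 bp at TPL, 124 bp at TPR2 and 72 bp at TPR1, so the close positions at TPL and TPR2 hold for the summits only.

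The summits at TPL and TPR2 lay farther upstream than those of most genes. Over all genes the median summit was at -53 (E2FA), -57 (E2FB) and -53 (RBR), and between 60.4% and 62.5% of summits lay within 250 bp of the TSS. Summits more than 400 bp upstream were found at 22.5, 22.7 and 23.8% of genes, and those of TPL and TPR2 were among them for all 3 proteins. Alternative starts would not bring them closer. The most downstream transcript start of TPL is 174 bp inside the gene and its start codon 674 bp, so the summits lie farther still from these. TPR2 has a single annotated transcript, with the start codon at 190.

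**Figure D4:**
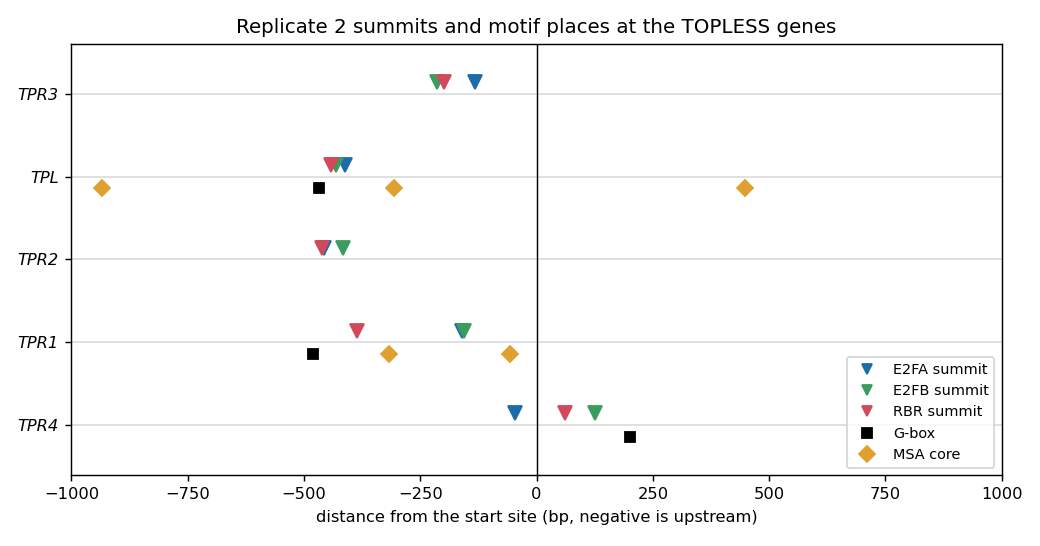
Replicate 2 summits of E2FA, E2FB and RBR (triangles) and matches to the G-box (squares) and the MSA core (diamonds) within 1000 bp of each TSS, by distance from the TSS in bp. The 3 summits of TPL fall within 29 bp of each other just downstream of its G-box, and TPR2 and TPR3 have neither motif.

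A second set of peaks lay just outside the window at most members. How many of all protein-coding genes have a further peak there was not counted, so this is no trait shown to be particular to the family. At TPR3 the replicate 1 lists had such a peak between -1747 and -1260, with a fold enrichment of 2.11 (E2FA), 1.65 (E2FB), 2.24 (E2FC) and 1.63 (RBR). The E2FC peak stood at rank 1520, close to the rank of 986 of the TPR3 promoter peak. Replicate 2 had none there within 3000 bp of the TSS. The E2FA peak overlaps the transcribed pseudogene AT5G27037, from -3941 to -1718, and the pseudogene AT5G27035, from -1143 to -905, lies between these peaks and TPR3.

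At TPL the second peak was at about the same place in all lists that resolved it, which in replicate 2 was -2923 to -1908 (E2FA), -2960 to -1930 (E2FB) and -2932 to -1903 (RBR). There its fold enrichment was 3.75, 4.80 and 5.36, below that of the promoter peak in each list. In the RBR list of replicate 1 it was a separate peak from -2944 to -1891 with a fold enrichment of 2.57, slightly above the 2.53 of the promoter peak. The replicate 1 peaks of E2FA, E2FB and E2FC ran across both places, with widths of 3666, 3488 and 2911 bp, so their values at TPL average over the distal place too. Upstream of TPL the next protein-coding gene is AT1G15757, with its TSS at -3546.

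TPR4 gives the peaks closest to the limit. Its upstream peaks of replicate 2 ended at -989 for E2FA, -946 for E2FB and -899 for RBR, just inside, with a fold enrichment of 2.75, 3.43 and 3.43. At TPR4 the E2FB peak at the TSS had the same fold enrichment of 3.43 as this upstream peak, and the 2 shared rank 10152, while another small peak inside the gene, from 400 to 571, had 2.01. The E2FC peak from -1959 to -1301 was outside. The summits of these upstream peaks, at -1931, -1407 and -1062, lie nearer to the start of AT3G15890 than to that of TPR4. At TPR1 the nearest peaks outside of replicate 2 ended at -1447 (E2FA), -1412 (E2FB) and -1327 (RBR), and those of E2FB and RBR ran past the start of AT1G80500. At TPR2 the replicate 1 lists had a small peak outside, ending between -1731 and -1658, with a fold enrichment between 1.52 and 1.80, toward AT3G16820, which starts at -2345 on the opposite strand.

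The E2F consensus, to which E2F proteins bind through their winged-helix domain, was searched on both strands in its form of 8 letters: TT, then 2 letters each C or G, then CG, then 2 letters each C or G. No member had a match within 1000 bp of its TSS, where 21.2% of all protein-coding genes had at least 1. None of the 35 peaks that stand for the members held a match either, including those over 3 kb wide. Within 100 bp of the summit the members had 0 matches for each protein, and over all genes with a summit a match was found at 9.23% (E2FA), 7.9% (E2FB) and 5.12% (RBR). Most genes with such a peak thus had none either. A count of 0 here concerns these letters only and says nothing about other forms of the site. A narrower form (TTT, 2 letters each C or G, CGC) is found at 9.38% of genes and was absent too. The first 6 letters alone, chosen after the data were seen, matched near no summit of a member, where 22.5, 20.7 and 16.4% of genes matched for E2FA, E2FB and RBR. Within 1000 bp of the TSS they matched at TPL only, in the words TTCGCG, on the minus strand at -241 to -236, and TTGCCG at 444 to 449, while 72.6% of all genes had such a match.

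The other motifs were chosen after the sequences had been seen and are counts only. The G-box CACGTG (both strands, its own reverse complement) was at -470 to -465 in TPL, at -484 to -479 in TPR1 and at 199 to 204 in TPR4, and at 23.9% of all genes. In TPL it was within 100 bp of all 3 summits, in TPR1 of the RBR summit only and in TPR4 of the E2FB summit only, where between 9.54% and 9.71% of genes had a G-box by the protein. The MSA core AACGG, the element read by the MYB3R factors of mitotic genes, was absent from TPR2, TPR3 and TPR4. TPL had it on both strands and TPR1 only on the strand opposite to transcription, while 83.8% of all genes had it in this window on either strand. The hexamer TTCGAA was found in TPR2, TPR3 and TPR4 and at 47.0% of genes. At TPR2 and TPR3 it is part of the word they share, printed above. The run GAGAGAGA was found in every member but TPR2 and at 39.6% of genes. It was within 100 bp of the summits of all 3 proteins at TPR3 and TPR4, where between 10.2% and 11.6% of genes had it by the protein.

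The upstream sequences fell into 1 pair and 3 single genes. When the 600 bp before the TSS were aligned for the 10 pairs of members, 63.5% of the positions of TPL were identical to TPR1, while the other 9 pairs were between 49.3% and 54.5%. The longest word shared by TPL and TPR1, gagccgataacgtcgagaa of 19 letters, is at -189 to -171 in TPL and -197 to -179 in TPR1, and no other protein-coding gene has it within 1000 bp of its TSS. In TPR1 it ends 18 bp before the E2FA summit at -161. In TPL it is 223 bp downstream of the nearest summit, that of E2FA. Their second word, aaaagctttgtcgtg of 15 letters, is at -371 to -357 in TPL and -375 to -361 in TPR1, 12 bp from the RBR summit of TPR1 at its nearest letter, and is present at 3 genes in all. In TPL all 3 summits, at -412, -431 and -441, lie upstream of this second word. The RBR summits of this pair were within 54 bp of each other in distance from the TSS, and the E2FA summits 251 bp apart. A link between the shared words and the summits was not tested.

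Shorter words were shared across the pairs, and all of these words were looked for after the sequences had been seen. Each was taken as the longest match of 2 stretches, so a low count of genes follows in part from its length. How long a word unrelated genes share was not counted. TPR1 and TPR2 share cagctagagattct, 14 letters found at 4 genes, at -211 to -198 in TPR1 and, on the other strand, at -535 to -522 in TPR2. TPR2 and TPR3 share ttttcgaatccgc, 13 letters found at 3 genes, at -379 to -367 in TPR2 and -82 to -70 in TPR3. TPR1 and TPR3 share aaatgtggggac, 12 letters found at 10 genes, at -351 to -340 in TPR1 and -138 to -127 in TPR3. The E2FA summit of TPR3, at -132, is inside it, while the TPR1 summits, at -161, -157 and -387, are not. TPR4 shared with TPR3 only a run of T and C letters, which 1.88% of genes have. The GC content within 100 bp of the summits was highest at TPR2, at 44.3% for E2FA, 46.8% for E2FB and 44.8% for RBR, where the median over all genes was 36.3%, 35.8% and 35.8%. At TPR4 the E2FA window had 31.3%, and 16.6% of genes were lower.

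The partners and targets of TOPLESS proteins were followed as a list of 20 genes, namely other co-repressors and chromatin enzymes, adaptors and DNA-binding partners, and genes known to be repressed through TOPLESS proteins. Of the 20, 11 (55%) had a peak in all 7 libraries, where 40.8% of all protein-coding genes did, and none lacked a peak in every library, as 10.09% of genes did. The median percentile of the list was 81.2 for RBR in replicate 1 and 75.1 in replicate 2, against 59.7 and 65.0 for all genes. It was 73.9 and 78.0 for E2FA, and 72.4 and 71.8 for E2FB. For E2FC it was 39.0, against 56.1 for all genes. In replicate 2, 11 of the 20 passed the thresholds of 3 and 0.01 with E2FA, 14 with E2FB and 14 with RBR, where 32.8, 49.2 and 52.6% of all protein-coding genes did. In replicate 1 none passed in any list, where at most 1.73% of genes did. The median of the pathway list was below that of the 5 TOPLESS genes in every library and, like TPL, TPR1 and TPR2, had its lowest place for E2FC.

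Among the co-repressors, LUG (LEUNIG), a Groucho-type protein of flower development, and its adaptor SEU (SEUSS) had a peak in all 7 libraries. LUG was between 70.2 and 94.4, and SEU was highest for RBR, at 93.0 and 97.0. The histone acetyltransferase gene HAG1, known to oppose TPL genetically, had 19.4 for RBR in replicate 2, against 94.6 for E2FA and 91.9 for E2FB. HDA19, the histone deacetylase that works with TPL, had a peak in 4 lists and none above the percentile 57.8. It was named after its values had been seen.

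JAZ1, a jasmonate repressor that reaches TPL through NINJA, was the highest of the adaptors and partners in 5 of the 7 lists. It was at 88.9 and 97.2 for E2FA, 94.5 and 96.3 for E2FB, 98.9 and 98.8 for RBR, and 53.5 for E2FC. NINJA itself was between 61.1 and 85.2 for E2FA, E2FB and RBR, and at 25.8 for E2FC. BZR1, the brassinosteroid factor with an EAR motif, was between 78.6 and 94.7 outside the E2FC list, where it was at 21.4. The Aux/IAA genes IAA3 and IAA14 and the stem cell gene WUS had peaks in all 7 libraries as well, and ARF5 did so at low percentiles, between 6.84 and 55.5. DND1, an ion channel gene repressed through TPR1, was at 85.6 and 92.8 for RBR and at 36.8 for E2FC. DND2, PLT1 and PLT2, also listed as repressed through TOPLESS proteins, stood lower for RBR. DND2 was at 81.2 and 59.8. PLT1 and PLT2 were at 1.14 and 16.8 in replicate 1 and had no RBR peak in replicate 2.

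**Figure D5:**
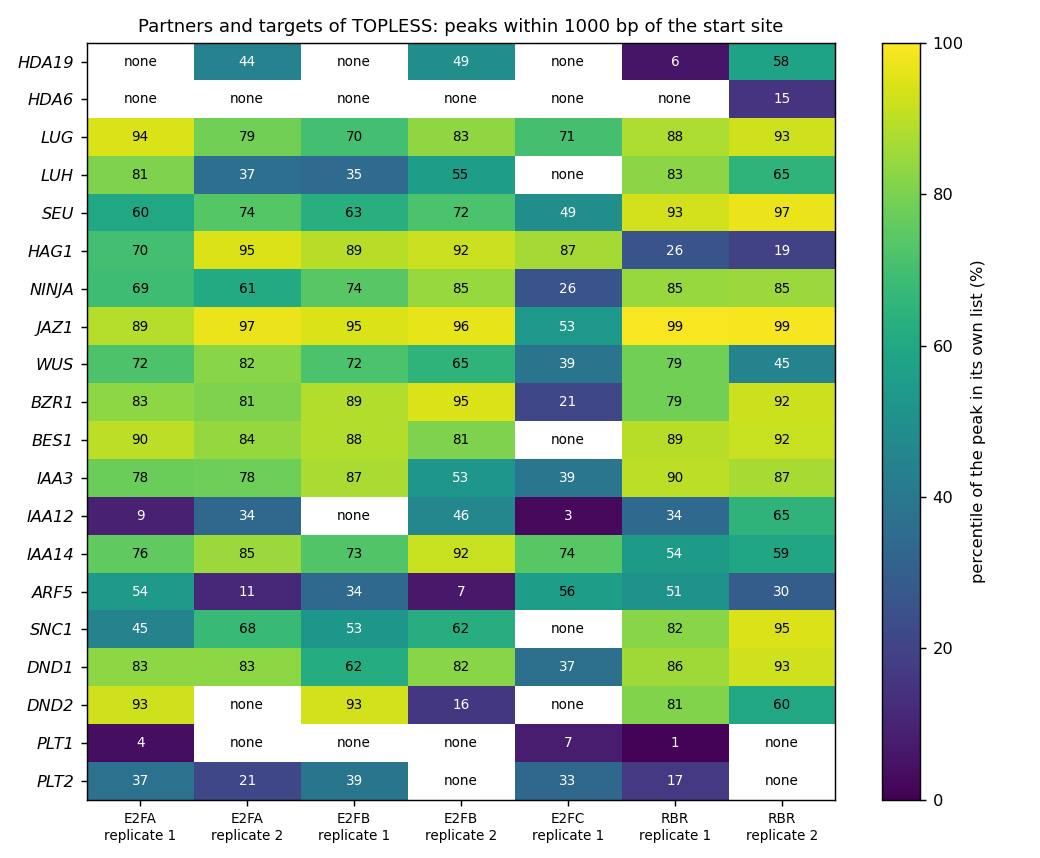
Percentile of the peak that stands for each of 20 TOPLESS partner and target genes (rows) in each of the 7 lists (columns), as colour and as a rounded number in percent, with "none" where no peak lies within 1000 bp of the TSS. JAZ1 is between 88.9 and 98.9 outside the E2FC column, and HDA6 has a peak only in the second RBR list.

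The genes with the pattern nearest to each member were found among the 11189 protein-coding genes with a peak in all 7 libraries, by the mean absolute difference of the 7 percentiles. For TPR3 they were AT5G44290, AT4G36640 and EXO, 1.24, 1.32 and 1.33 percentile points away. For TPL they were SPL1, JAZ1 and RABA6b, at 1.501, 1.78 and 1.79. For TPR2 they were WRKY53, a regulator of leaf senescence, CIPK15, a protein kinase, and AT1G76170, at 1.13, 1.37 and 1.51. For TPR1 they were AT1G01540, UTR2 and SPPL2, at 2.999, 3.08 and 3.23. For TPR4 they were AT2G32030, at 3.22, and AT5G64870 and AT5G64880, both at 3.51 because they share their peaks. No member was among the 3 nearest of another member.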

How the data were processed

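Peaks were called by the authors in each of 7 ChIP-seq libraries from seedlings with GFP fusions of E2FA, E2FB, E2FC or RBR. The submitters' processing notes name Trimmomatic 0.38, Bowtie2 2.3.5, SAMtools 1.9 and MACS2 2.2.7.1. The labels number only the replicate 2 libraries, and replicate 1 stands for those without a number. Replicate 2 peak names point to MACS3, and the stated peak calling settings differ between the sources used here. In the deposited files the authors give each peak a display score, which was not used, a fold enrichment over local background as a ratio, and p and q as −log10 values. The number of reads behind a peak is unknown.

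Only peaks of the 5 nuclear chromosomes entered, and between 4 and 97 organelle peaks per list were left out. Every peak ended within the chromosome lengths of the RefSeq TAIR10.1 genome, whose annotation gave genes and start sites. Matching, ranking and motif searches were run in Python 3.11.15 with numpy 2.4.6, alignments with Biopython 1.88, and figures with matplotlib 3.10.9. On simulated peaks and sequences, 100% of planted features were recovered. No hypothesis test was made. Named were the 5 members, the genes of the pathway list with a peak in all libraries or in none, the 3 genes of nearest pattern and the neighbouring genes. Outside this rule, HDA19, HDA6, DND2, PLT1 and PLT2 of the pathway list were named after their values had been seen. Members and lists were chosen with earlier results of these data known. Alternatives varied the window, thresholds, ranking, TSS, summit and motif. Signal tracks were not analysed here.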

Additional observations from a re-analysis of the deposited data

How the results depend on the processing

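Members with a peak stayed at 5 in every list with windows of 500 or 2000 bp and with the most downstream transcript start, and a peak in all libraries was found for 5 members whichever library or replicate was left out. With peak midpoints within 1000 bp, 3 members were counted for E2FA and 3 for E2FB in replicate 1, since wide peaks are centred farther upstream. A fold enrichment over 3 with q under 0.01 left, in replicate 1, 1 member with E2FA, 0 with E2FB, 0 with E2FC and 1 with RBR, and a fold enrichment over 2 left 3 for E2FB and 1 for E2FC there. Ranked by −log10 q, the median percentile of the members was 93.7 (E2FA), 56.7 (E2FC) and 98.9 (RBR) in replicate 1. Ranked among the best peaks of genes only, it was 89.7 and 87.6 for E2FA (replicate 1 and replicate 2), 98.1 for RBR in replicate 2, 84.0 and 90.1 for E2FB, and 49.0 for E2FC. The nearest peak in place of the highest moved none of the 35 percentiles by more than the spread between replicates or, for E2FC, outside its exact 95% binomial interval, which covers counting error only. Peak midpoints in place of summits gave a spread of 241 bp at TPL, 72 bp at TPR1 and 124 bp at TPR2. The counts of 0 matches to the E2F consensus held in windows of 50 and 250 bp, in the narrow form and with its first 6 letters. No paired analysis was possible because the results come from no test. The lists give no read depth, E2FC has 1 library, and no library without a GFP fusion sets a background.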

Other observations

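The distal peaks of TPL and TPR1, outside the window of 1000 bp, had summits of the 3 proteins close to each other. At TPL this was so in the promoter too, and at TPR1 it was not. In replicate 2 the strongest distal peak at TPL had its summit at -2244 for E2FA, -2266 for E2FB and -2233 for RBR, within 33 bp. At TPR1 the summits were at -2873, -2885 and -2843, within 42 bp, while the promoter summits of TPR1 were 230 bp apart. The fold enrichment there was 3.75, 4.80 and 5.36 at TPL and 2.90, 3.48 and 4.52 at TPR1. At TPL no gene is annotated under the distal peak. At TPR1 the 3 distal peaks cover the start of AT1G80500, at -3320, and their summits lie nearer to it than to the TSS of TPR1. Which of the 2 genes these peaks belong to cannot be told apart. These peaks were looked at after the promoter values were known, and the spread at distal peaks of other genes was not counted.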
